A study of Sus scrofa with 8 samples.

Results

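SIX4, EYA1, EYA2, EYA4 and DACH1 were followed through early muscle formation in the pig. SIX4 is a sine oculis homeobox protein, the EYA genes encode eyes absent proteins and DACH1 is a dachshund protein. The genes were chosen by symbol as 5 of the 21301 genes in the count tables of all 8 libraries. Each library was a 10x Genomics single-cell library of embryonic tissue from Tibetan pigs (ZZ) or from the cross of Duroc with Tibetan pigs (DZ), with no treatment or edited allele named. The libraries of embryonic days 16, 18 and 21 were made from somites (E16-ZZ to E21-DZ). Those of day 28 were made from myotome (E28-ZZ, E28-DZ), so day 28 and the change of tissue cannot be told apart. Each library pooled 5 embryos of 1 sow, and each stage of each breed was 1 library, so libraries were the replicates. In fits of stage or breed, p-values measure the spread between libraries. In late against early fits, that spread takes in the difference between the stages on each side. In fits of gates, library was a block and each library gave several sums. Those p-values measure the scatter of gate sums left within libraries, not the spread between libraries. Where the pair of libraries of a stage is given, ZZ comes first and DZ second.

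Sine oculis homeobox proteins are DNA-binding factors that recognise a short DNA element called MEF3. They recruit EYA proteins, phosphatases without a DNA-binding domain of their own, as coactivators. DACH proteins are nuclear partners of the same network and act mainly as corepressors in place of the coactivating EYA proteins. With PAX3, these families stand upstream of the myogenic factors MYF5, MYOD1 and MYOG in the dermomyotome, the dorsal part of the somite that gives rise to the myotome, and they later take part in the choice of fast muscle genes.

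The MEF3 letters are shown first because they are the element that sine oculis homeobox proteins recognise. The exact letters TCAGGTTTC were searched on both strands of 300 bases, from 250 bases before to 50 bases after the RefSeq start of each gene, on the Sscrofa11.1 assembly. Each gene had 1 window, at its outermost 5′ end, and other start sites within a gene were not searched. They stood in 72 of 19559 protein-coding windows (0.368%). Of the 5 genes, SIX4 had a match, as did MYOG among the 20 genes of a fixed myogenic network list, and no gene of the other 7 family genes or the 12 fast muscle genes had one. Each window below is written 5′ to 3′ on the strand that reads TCAGGTTTC, with those letters in capitals and 10 bases on each side.
SIX4, chr1:189682526-189682554, match on the strand opposite to the gene, base farthest from the start at -166: atctggccgaTCAGGTTTCcccccggcca
MYOG, chr9:113785430-113785458, match on the strand of the gene, base farthest from the start at -136: agaggggggcTCAGGTTTCtgtggcgttg
The matches are descriptions of letters, not of binding. With the looser letters TCAGGTTNC, which take in the exact form, 225 windows matched (1.15%). SIX4 spans chr1:189670390-189682378 on the minus strand and is the shortest of the 5 genes at 12.0 kb. The other 4 genes span 313.1 kb (EYA2, chr17:48930682-49243789, plus strand), 314.8 kb (EYA4, chr1:30260784-30575593, minus strand), 357.2 kb (EYA1, chr4:63970939-64328107, plus strand) and 422.4 kb (DACH1, chr11:43765386-44187766, minus strand).

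After filtering, 74147 cells remained, with 5436 to 10956 cells and 39852689 to 57568895 unique molecular identifiers (UMIs, counted molecules) per library. Cells were not clustered. They were gated on marker genes, and 32403 cells (43.7%) entered 1 of 20 gates, while 38952 (52.53%) met no gate and 2792 (3.77%) met gates of 2 or more lineages and were left out of the gates. The 4 skeletal gates held 5265 cells (7.101% of all, 1.214 to 18.246% per library). They were dermomyotome-like cells (672, PAX3 required), muscle progenitor-like cells (1912, MYF5 or PAX7 without MYOD1 or MYOG), myoblast-like cells (857, MYOD1 required) and myocyte-like cells (1824, MYOG or MYMK required). Markers separated these cells from the rest by the choice of the gates, as MYMK had a UMI in 97.9% of myocyte-like cells against 1.97% of other cells, and MYF5 in 89.2% of progenitor-like cells against 4.97%. LBX1, a marker of migrating limb muscle precursors, had a UMI in 0.3% of progenitor-like cells. In E16-ZZ, 39.16% of barcodes exceeded the limit on mitochondrial UMIs, against 9.15% or less in the other libraries, and 0.92% of cell barcodes occurred in more than 1 library. Both E16 libraries were counted with another Cell Ranger version (3.1.0) than the rest (3.0.2), which cannot be told apart from stage.

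To follow the 5 genes along the myogenic lineage, UMIs were summed over the cells of each gate in each library with at least 20 such cells and scaled to CPM, the UMIs of a gene per 1000000 UMIs of the sum. These are 3′ tag counts, so levels are compared between cells and not between genes. EYA2 and EYA4 were highest in myocyte-like cells, SIX4 and EYA1 overlapped across the skeletal gates, and DACH1 had its highest mean in dermomyotome-like cells, though the gates did not cover the same stages.

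**Figure D1:**
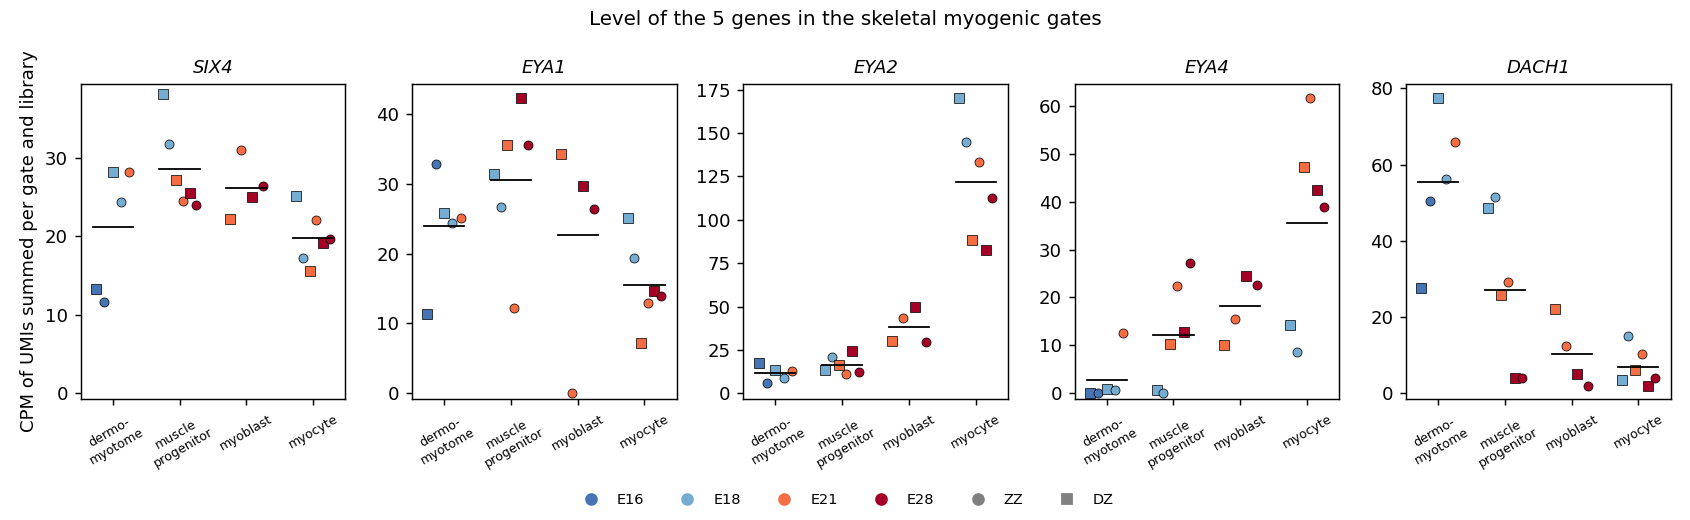
Level of each gene (vertical axis, CPM of summed UMIs) in the 4 skeletal gates. Each point is 1 library with at least 20 cells of the gate, colour gives the stage, shape gives the breed (circle ZZ, square DZ) and bars are means. EYA2 points of myocyte-like cells (82.8 to 170.3) all lie above those of the other 3 gates, and DACH1 is below 5 in both E28 libraries of the progenitor gate.

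SIX4, the homeobox member, had 21.2 ± 8.1 CPM in dermomyotome-like cells (SD, n = 5 libraries), 28.5 ± 5.5 in progenitor-like cells (n = 6), 26.2 ± 3.7 in myoblast-like cells (n = 4) and 19.8 ± 3.4 in myocyte-like cells (n = 6). In progenitor-like cells the E18 pair had 31.8 and 38.1, the E21 pair 24.5 and 27.1, and the E28 pair 24.0 and 25.6. In dermomyotome-like cells the E16 pair had 11.6 and 13.3, the E18 pair 24.4 and 28.2, and E21-ZZ 28.2. The 4 gates overlapped, and the E16 libraries were the lowest. Along the lineage the log2 fold changes between neighbouring gates were 0.14 ± 0.34 (SE), -0.18 ± 0.34 and -0.13 ± 0.35, and none passed the test (edgeR quasi-likelihood, library as a block, Benjamini-Hochberg adjusted p under 0.05 over 11479 genes).

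EYA1, the family member best known from ear and kidney development, also overlapped along the lineage. It had 23.9 ± 7.8 CPM in dermomyotome-like cells, 30.6 ± 10.4 in progenitor-like cells, 22.6 ± 15.4 in myoblast-like cells and 15.5 ± 6.1 in myocyte-like cells. The wide spread in myoblast-like cells came from E21-ZZ, where no UMI was seen among 59 cells (which allows up to 9.31 CPM), against 34.2 in E21-DZ and 26.5 and 29.7 in the E28 pair. In myocyte-like cells the E18 libraries stood highest, at 19.4 and 25.1, and the later 4 lay between 7.17 and 14.7. No step along the lineage passed the test, and the last one was -0.33 ± 0.43.

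EYA2, a coactivator of the same family, rose late in the lineage. In myocyte-like cells the E18 pair had 144.7 and 170.3 CPM, the E21 pair 133.4 and 88.4, and the E28 pair 112.5 and 82.8. In myoblast-like cells the E21 pair had 43.5 and 30.2, and the E28 pair 29.7 and 49.999. The groups did not overlap, and the lowest myocyte value stood above the highest myoblast value. Progenitor-like cells lay between 10.9 and 24.6, again below every myoblast value, and dermomyotome-like cells between 5.81 and 17.4.
From myoblast-like to myocyte-like cells EYA2 rose by 2.11 ± 0.46 on the log2 scale (edgeR adjusted p = 0.000319). From progenitor-like to myoblast-like cells the difference was 1.06 ± 0.47 (edgeR adjusted p = 0.752) and did not pass.

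EYA4 was also higher in myocyte-like than in myoblast-like cells. In myocyte-like cells the E18 pair had 8.64 and 14.3 CPM, the E21 pair 61.5 and 47.2, and the E28 pair 38.9 and 42.4. Both E18 libraries were low and all 4 later ones high, without overlap. In myoblast-like cells it lay between 10.1 and 24.6. From myoblast-like to myocyte-like cells EYA4 rose by 1.70 ± 0.36 (edgeR adjusted p = 0.000173), with the library, and so the stage, held as a block. Of the 5 genes, EYA2 and EYA4 were the 2 called in this step, where 17.4% of all genes tested were called (9.56% higher). In the myoblast step 0.157% of all genes were called and in the progenitor step 0.81%, and none of the 5 genes was among them.

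DACH1, the corepressor, had its highest mean over libraries in dermomyotome-like cells, and no step along the lineage passed for it. In dermomyotome-like cells the E16 pair had 50.4 and 27.7 CPM, the E18 pair 56.3 and 77.5, and E21-ZZ 65.9. In progenitor-like cells the E18 pair had 51.6 and 48.6, the E21 pair 29.2 and 25.7, and the E28 pair 3.89 and 3.93. The libraries of a stage stood together in progenitor-like cells, and each stage was below the one before it. Means over libraries, which were not of the same stages in each gate, were 55.6 ± 18.6 in dermomyotome-like, 27.1 ± 20.7 in progenitor-like, 10.4 ± 9.0 in myoblast-like and 6.8 ± 5.0 in myocyte-like cells. The dermomyotome gate had no sum at E28, where the other gates were low, and the myoblast gate had none before E21.
The step from dermomyotome-like to progenitor-like cells, -1.30 ± 0.36, did not pass (edgeR adjusted p = 0.0646), and it did pass without E18-ZZ (adjusted p = 0.0194). The next 2 steps were -0.98 ± 0.49 (adjusted p = 0.824) and -0.59 ± 0.56 (adjusted p = 0.544).

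The share of cells with a UMI is given here for EYA2, EYA4 and DACH1. Each cell was thinned to 1500 UMIs, because median depth differed between gates (5430.5 UMIs in myocyte-like cells, 4113.0 in neuron-like cells and 7174.5 in erythroid-like cells). After thinning, EYA2 had a UMI in 15.019% of myocyte-like cells (95% exact binomial interval 13.404 to 16.749%), in 6.206% of myoblast-like cells, in 2.838% of progenitor-like cells and in 1.341% of dermomyotome-like cells. Without thinning the myocyte share was 41.502%. EYA4 had a UMI in 5.687% of thinned myocyte-like cells (20.943% unthinned), and DACH1 in 7.899% of thinned dermomyotome-like cells (27.976% unthinned). Erythroid-like cells, which should lack these genes, gave 0 to 0.469% for the 5 genes. Intervals and detection limits cover counting error only, and cells of a library are not replicates. After thinning, 2 or more of the 5 genes were seen together in 1.04% of dermomyotome-like cells, 1.16% of progenitor-like cells, 1.17% of myoblast-like cells and 2.26% of myocyte-like cells. These shares also depend on the share of each single gene. The level that independent detection would give was not computed, so they do not show joint expression.

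To place the 5 genes among the other cells of these tissues, 13 gates were each compared with the mean of the progenitor, myoblast and myocyte gates in the same fit of 89 sums over 16 gates. SIX4, EYA1, EYA2 and EYA4 were higher in muscle wherever a difference passed, and DACH1 was lower in muscle wherever a difference passed. In all, 45 of the 65 comparisons passed. Among all genes tested, the share called lower than in muscle was 27.8% in the neuron gate, 29.7% in the erythroid, 25.5% in the endothelial, 16.8% in the fibroblast, 14% in the neural crest or glia, 12.5% in the chondrogenic, 12% in the cardiac, 11.8% in the neural progenitor, 10.7% in the epithelial, 10.6% in the tendon, 8.62% in the lateral mesoderm, 8.57% in the sclerotome and 6.38% in the dermomyotome gate. The counts given next for each gene are to be read beside these shares.

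**Figure D2:**
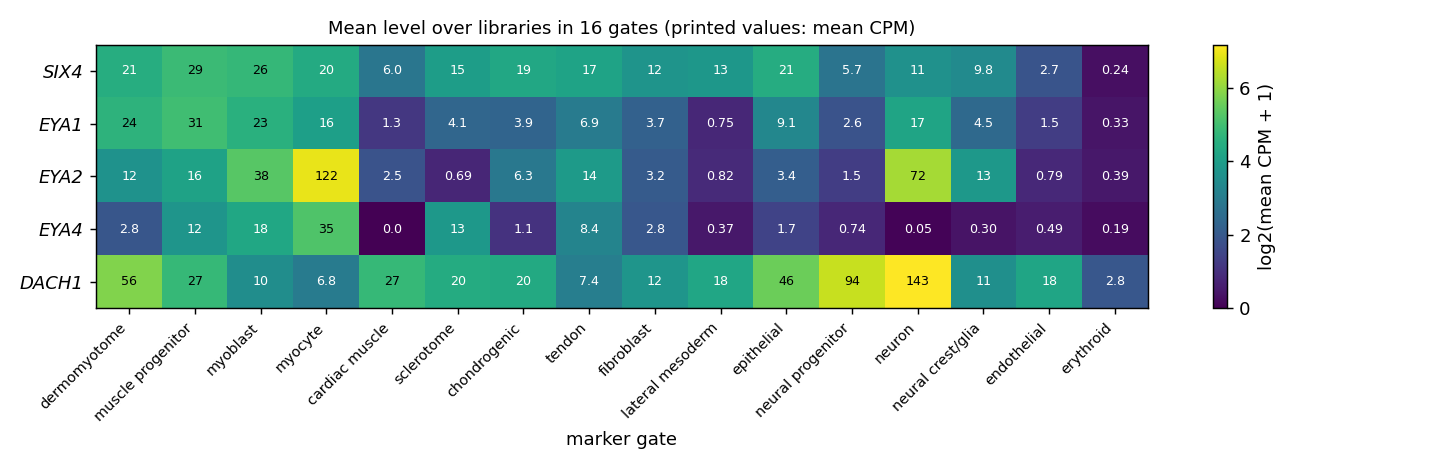
Mean CPM over libraries of each gene (rows) in 16 gates (columns), printed in each cell and coloured on a log2(mean CPM + 1) scale. Colours are to be compared along a row. EYA2 stands out in the myocyte (122) and neuron (72) gates, and DACH1 in the neuron (142.9) and neural progenitor (94) gates.

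SIX4 was lower than in muscle in 6 of 13 gates. The differences reached -4.56 (log2) in erythroid-like cells, and they were -2.47 in endothelial-like, -2.05 in neural progenitor-like, -1.42 ± 0.31 in neuron-like, -1.33 in neural crest or glia-like and -0.80 in fibroblast-like cells. Endothelial-like cells had 0 to 5.15 CPM over the 8 libraries, against 15.5 to 38.1 in the 3 muscle gates. Epithelial-like cells did not pass against muscle (-0.08 ± 0.32), with 11.9 and 13.7 CPM in the E16 pair, 14.7 and 27.7 in the E18 pair and 35.1 in E21-ZZ. Ordered by mean, the 16 gates ran from progenitor-like to erythroid-like cells, and every neighbouring pair overlapped in its libraries.

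EYA1 was lower than in muscle in 11 of 13 gates, from -4.18 in lateral mesoderm-like cells to -0.92 in neuron-like cells. The 2 gates that did not pass were the dermomyotome gate (0.37) and the epithelial gate (-0.998, edgeR adjusted p = 0.0566). Neuron-like cells had 3.84 to 49.9 CPM, and that call was lost without E21-ZZ (adjusted p = 0.08003) or without E21-DZ (0.0779). The calls in cardiac-like and tendon-like cells were lost without E16-DZ (0.176) and without E28-ZZ (0.106). The tendon call was also lost with a mitochondrial limit of 5% (0.0761) or with 1 more marker required per gate (0.134). Fibroblast-like cells had 1.105 to 10.99 CPM, with the highest value in E28-DZ.

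EYA2 was lower than in muscle in 12 of 13 gates, down to -6.17, and the exception was neurons. In neuron-like cells the E18 pair had 107.3 and 114.7 CPM, the E21 pair 48.6 and 51.5, and the E28 pair 49.9 and 60.0. The E18 libraries stood above the later ones, and the range overlapped that of myocyte-like cells. The difference from the 3 muscle gates was 0.50 ± 0.33 (edgeR adjusted p = 0.187).
Neural progenitor-like cells, which precede neurons, had 0 to 5.93 CPM. After thinning, 7.787% of neuron-like cells had an EYA2 UMI (16.686% unthinned). The EYA2 calls in the dermomyotome, tendon and cardiac gates each depended on single libraries: without E18-ZZ the dermomyotome call had adjusted p = 0.241, without E18-DZ 0.152, without E21-ZZ 0.0652, without E21-DZ 0.0706 and without E28-ZZ 0.0627. The tendon call had 0.0527 without E21-ZZ, 0.0818 without E21-DZ and 0.150 without E28-ZZ, and the cardiac call had 0.251 without E16-DZ. The dermomyotome call was also lost with DESeq2 (adjusted p = 0.249). With edgeR it was lost with a mitochondrial limit of 5% (0.114), at least 50 cells per sum (0.0578) or no filter on low counts (0.0564). Giving cells of 2 lineages to the lineage with most markers also lost it (0.0862). The 5% limit also ended the tendon (0.272) and neural progenitor (0.0843) calls.

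EYA4 was lower than in muscle in 10 of 13 gates. The largest difference, a fitted -6.93, was in neuron-like cells, where 2 UMIs were found among 11758765. EYA2 in the same cells overlapped myocyte-like cells. Sclerotome-like cells, the precursors of vertebrae and ribs, were among the 3 gates that did not pass (-0.81), with 0 UMIs in the E18 pair, 18.1 and 16.0 CPM in the E21 pair (10 and 8 UMIs) and 32.1 CPM in E28-ZZ (3 UMIs). The other 2 were the cardiac gate, with 0 UMIs, and the epithelial gate. The call in the dermomyotome gate was lost without any of E16-ZZ (adjusted p = 0.0649), E16-DZ (0.0889), E18-ZZ (0.0554), E18-DZ (0.0789), E21-ZZ (0.178), E28-ZZ (0.0552) or E28-DZ (0.0552). With a mitochondrial limit of 5%, the EYA4 calls in the dermomyotome (edgeR adjusted p = 0.0514), endothelial (0.0628) and lateral mesoderm (0.143) gates were lost.

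DACH1 was higher than in muscle in 6 of 13 gates and lower in 0. It was highest in neuron-like cells, where the E18 pair had 178.8 and 131.1 CPM, the E21 pair 153.5 and 212.1, and the E28 pair 95.6 and 86.6. Every one of these lay above all values of the skeletal gates, and the difference from muscle was 3.45 ± 0.27 (edgeR adjusted p = 1.91e-18). After thinning, 20.675% of neuron-like cells had a DACH1 UMI (44.885% unthinned).
The other calls were neural progenitor-like cells (2.25 ± 0.36, with 60.3 to 125.8 CPM), cardiac-like cells (2.21 ± 0.55), dermomyotome-like cells (2.15 ± 0.34), epithelial-like cells (1.80 ± 0.33) and chondrogenic-like cells (1.14 ± 0.40). In these 6 gates the share of all genes called higher than in muscle was 31.7% (neuron), 16.2% (epithelial), 14% (chondrogenic), 11.4% (cardiac), 10.5% (neural progenitor) and 5.38% (dermomyotome). The cardiac call was lost without E16-DZ (1.11, adjusted p = 0.485), and the chondrogenic call without E28-ZZ (0.41, adjusted p = 0.637) or E28-DZ (0.97, adjusted p = 0.123). Nephric mesoderm-like cells reached the 20-cell minimum in E18-ZZ alone, with 130.8 CPM of DACH1 (64 UMIs in 48 cells).

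To follow the genes through time, UMIs were next summed over all cells of a library. In such sums fewer cells of a type and less RNA per cell cannot be told apart. EYA2 and EYA4 were higher in the 4 late libraries (E21 and E28) than in the 4 early ones (E16 and E18), and the other 3 genes did not pass in this contrast.

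**Figure D3:**
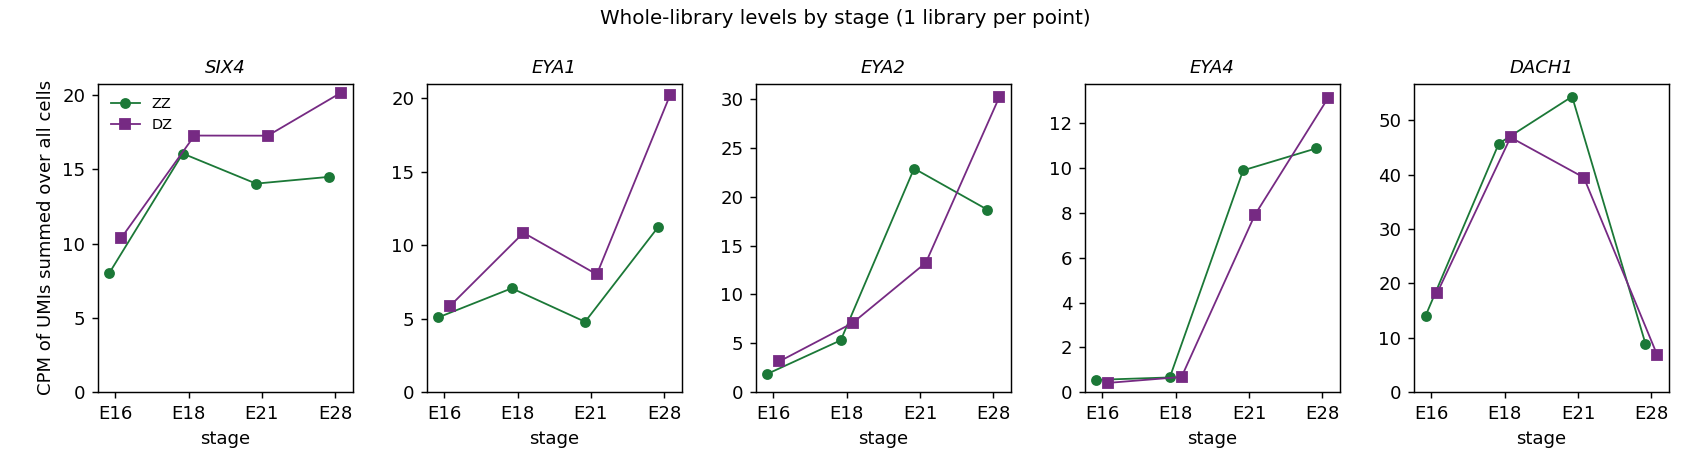
Whole-library level (vertical axis, CPM over all cells) by stage for each gene, with 1 library per point and lines joining the libraries of a breed (green circles ZZ, purple squares DZ). EYA4 lies below 1 at E16 and E18 and between 7.91 and 13.1 from E21 on, and DACH1 peaks at E18 and E21.

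For EYA4 the E16 pair had 0.552 and 0.417 CPM, the E18 pair 0.660 and 0.681, the E21 pair 9.90 and 7.91, and the E28 pair 10.9 and 13.1. Early and late libraries did not overlap, with 120 UMIs in the early libraries and 1821 in the late ones. EYA4 rose by 4.00 ± 0.25 (log2, late minus early, breed in the fit, edgeR adjusted p = 0.000851).
For EYA2 the E16 pair had 1.88 and 3.15 CPM, the E18 pair 5.32 and 7.08, the E21 pair 22.9 and 13.2, and the E28 pair 18.7 and 30.1. It rose by 2.15 ± 0.38 (edgeR adjusted p = 0.00608). Of 14337 genes tested, 34.1% were called in this contrast (17.1% higher), against 2 of the 5 genes, both higher.
SIX4 lay between 8.03 and 20.1 CPM (0.19 ± 0.21, edgeR adjusted p = 0.513) and EYA1 between 4.79 and 20.2 (0.42 ± 0.37, adjusted p = 0.407). For DACH1 the E16 pair had 14.0 and 18.3, the E18 pair 45.7 and 46.9, the E21 pair 54.4 and 39.5, and the E28 pair 8.95 and 6.87. It was high in the middle stages and low at both ends, so the late minus early difference was -0.33 ± 0.72 (adjusted p = 0.740).

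Because DACH1 moved in both directions, adjacent stages were also compared, with stage as a factor and breed in the fit. This contrast was chosen after the values had been seen, and it rests on 2 libraries per stage with 3 residual degrees of freedom for the whole libraries. DACH1 rose from E16 to E18 by 1.34 ± 0.20 (edgeR adjusted p = 0.0215, 2.33% of all genes called higher) and fell from E21 to E28 by 2.57 ± 0.21 (adjusted p = 0.00247, 4.35% called lower). The fall passed in all 8 fits that left out 1 library, and the rise in 5 of 8, being lost without E16-ZZ (0.0982), E18-ZZ (0.102) or E18-DZ (0.189). EYA4 rose between E18 and E21 by 3.63 ± 0.26 (adjusted p = 0.000752, 11% called higher, passed in 8 of 8).
EYA2 rose in the same interval by 1.48 ± 0.32 (adjusted p = 0.0216), and the call was lost without E18-ZZ (0.166), E18-DZ (0.116) or E21-ZZ (0.0509). EYA1 rose from E21 to E28 by 1.26 ± 0.21 (adjusted p = 0.0174, 4.53% called higher), lost without E21-ZZ (0.0706) or E28-DZ (0.0805). SIX4 rose from E16 to E18 by 0.70 ± 0.15 (adjusted p = 0.0488), a call that held in 2 of the 8 fits that left out 1 library and was lost without E16-ZZ (0.225), E16-DZ (0.173), E18-ZZ (0.311), E18-DZ (0.234), E28-ZZ (0.0528) or E28-DZ (0.0518).

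The mix of cells changed with stage as well. Myocyte-like cells numbered 157 early and 1667 late, and all 857 myoblast-like cells were late. Neuron-like cells made up 15.134% of E21-ZZ and 7.557% of E21-DZ, against 0.084 to 1.698% of the other libraries. Of all late EYA2 UMIs, 36.85% came from the skeletal gates (10.49% of late cells) and 15.39% from the neuron and neural progenitor gates (6.623% of late cells). Of all late EYA4 UMIs, 38.99% came from the skeletal gates and 16.69% from the fibroblast gate (31.06% of late cells). Of all late DACH1 UMIs, 38.72% came from the neuron and neural progenitor gates, while 72.15% of the early ones came from ungated cells (70.1% of early cells).
With the skeletal, neuron and neural progenitor gates left out, EYA4 had 0.533 ± 0.079 CPM early and 7.99 ± 0.99 late (n = 4 libraries each). EYA2 had 2.99 ± 1.09 early (1.58 to 4.13) and 6.71 to 20.3 late, without overlap. DACH1 outside these gates had 13.5, 18.0, 45.1, 45.6, 35.5, 28.7, 9.21 and 5.43 CPM in stage order, ZZ before DZ, with the E18 pair highest and the E28 pair lowest. These sums kept the ungated cells, which held 752 of 1821 late EYA4 UMIs, 1145 of 3691 late EYA2 UMIs and 2072 of 4884 late DACH1 UMIs. Ungated cells can include muscle or neural cells that met no gate or met 2 lineages. The values are therefore not those of tissue free of these cell types.

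To separate the mix of cells from change within a cell type, late and early libraries were compared inside gates. EYA4 was the gene with the most calls. In 4 gates with at least 3 early and 3 late libraries (fibroblast, neural crest or glia, endothelial and erythroid), 7 tests of the 5 genes could be made after the filter on low counts, and 2 passed, both higher (in the endothelial gate, where none did, 27.9% of all genes were called). These were EYA4 in the fibroblast gate and EYA2 in the neural crest or glia gate. Both passed the filter through their late libraries only, so no call in the other direction was possible for them. In gates with at least 2 and 2 libraries, a rule added after the values had been seen, 4 further tests passed. Tests of the 5 genes numbered 5 in the progenitor, 5 in the myocyte, 4 in the neuron, 3 in the sclerotome and 1 in the neural progenitor gate. Of all genes, 3.03% were called higher in the progenitor, 4.03% in the myocyte and 4.79% in the sclerotome gate (3.31% lower). In the neuron gate 2.28% were called. EYA4 in the progenitor and sclerotome gates also passed the filter through late libraries only, and DACH1 in the sclerotome gate through early libraries only. The same limit holds for 2 tests of adjacent stages given below, from E18 to E21. They are EYA2 in the neural crest or glia gate and EYA4 in the progenitor gate.

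**Figure D4:**
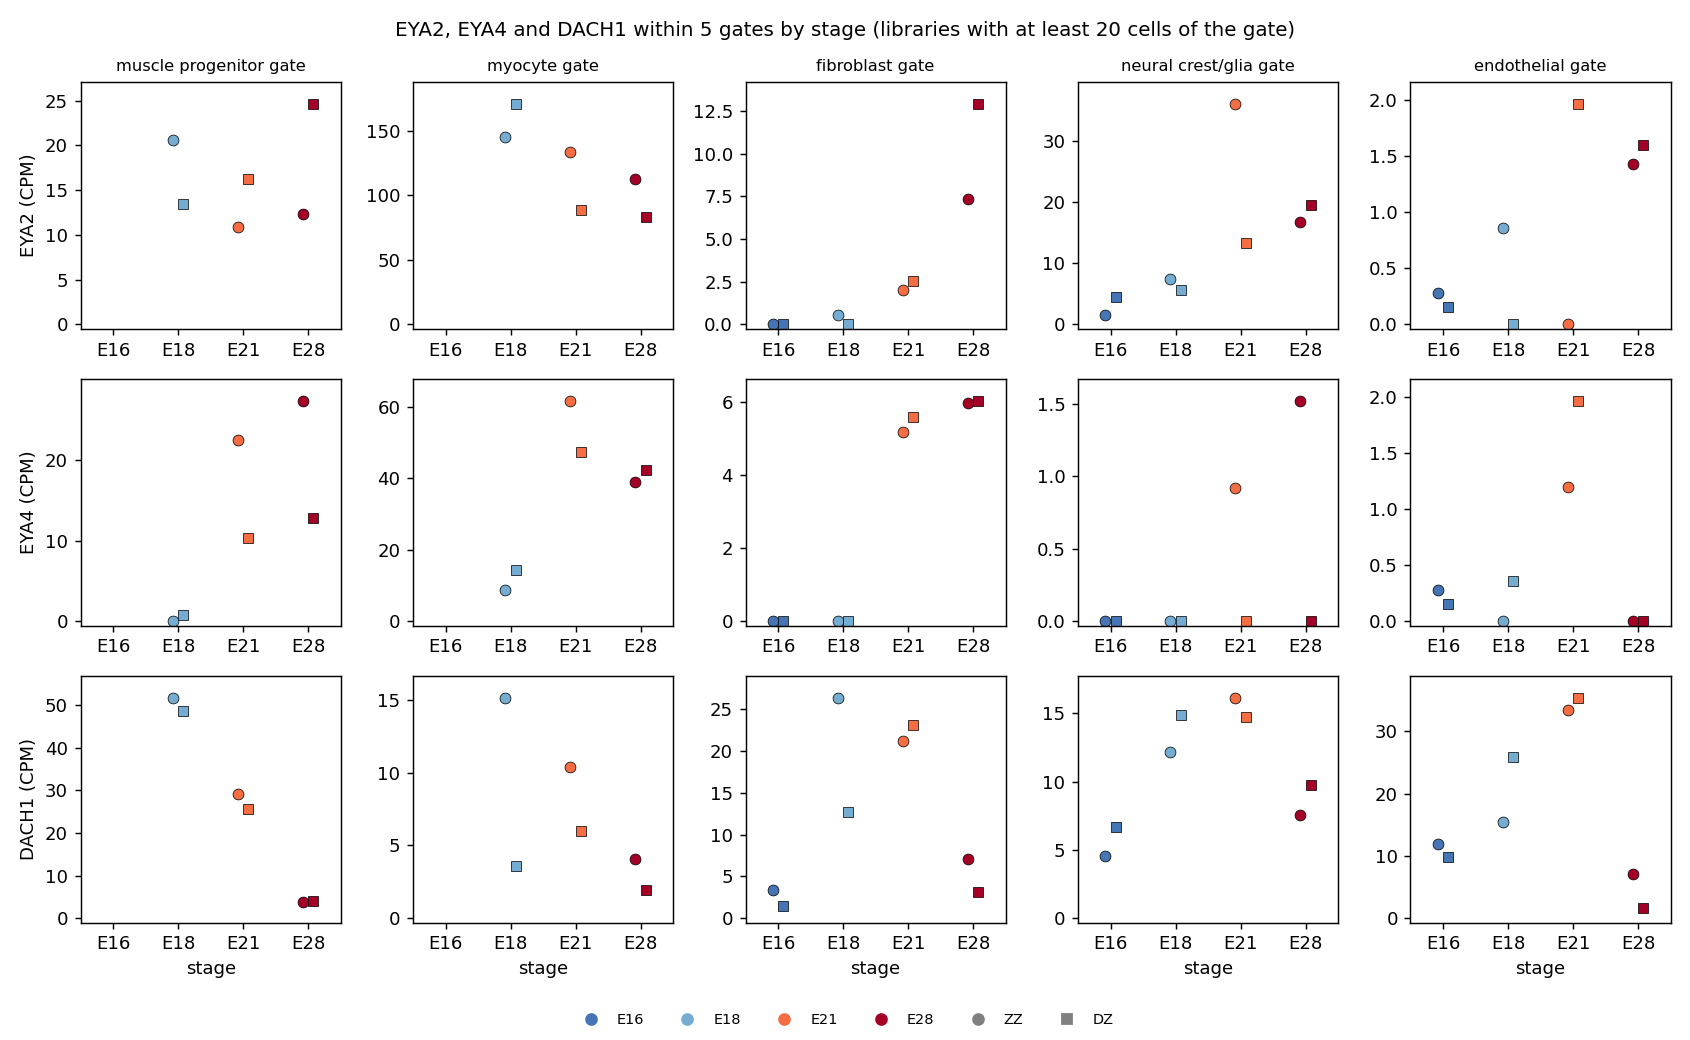
EYA2, EYA4 and DACH1 (rows, CPM) within 5 gates (columns) by stage. Each point is 1 library with at least 20 cells of the gate, colour gives the stage and shape the breed (circle ZZ, square DZ). EYA4 is at 0 in all 4 early fibroblast sums and between 5.20 and 6.03 in the late ones, and DACH1 in the progenitor, fibroblast and endothelial gates is lower at E28 than at E21.

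In fibroblast-like cells, the connective tissue cells of the region, EYA4 had 0 UMIs in all 4 early libraries and 5.20 and 5.59 CPM in the E21 pair and 5.97 and 6.03 in the E28 pair. This was 0 of 7300103 UMIs against 304 of 51829044, at least 14.3-fold higher in the late libraries when the early sum is set at the 3-count floor (edgeR adjusted p = 0.00161, 15.2% of all genes called higher). The call held with a mitochondrial limit of 5% and could not be tested with 1 more marker required per gate. Myocyte markers in the fibroblast gate summed to 24.4 to 48.6 CPM at E16, 40.6 to 43.1 at E18, 79.6 to 96.3 at E21 and 77.8 to 160.2 at E28, with MYOG at 0 in the early libraries. Of the 7 myocyte markers in the files, 3 to 4 had a UMI there at E16, 6 at E18 and 7 at E21 and E28, and their part in the result was not tested.
EYA2 in the same gate had 1 UMI in the early libraries and 413 in the late ones, a ratio of 58.2 (95% exact interval 10.4 to 2303), and it was too low for the test across genes. By library it had 0, 0, 0.548 and 0 CPM early, then 2.03, 2.54, 7.34 and 12.9. In the fit of adjacent stages it passed the filter on low counts through its E28 libraries only, so no fall from E21 to E28 could have been called. Between E21 and E28 it rose by 2.01 ± 0.45 (edgeR adjusted p = 0.014, 4.83% called higher), and the call was lost without E21-ZZ (0.0668), E21-DZ (0.270) or E28-DZ (0.245).

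In neural crest or glia-like cells, marked by SOX10, EYA2 had 1.52, 4.47, 7.46 and 5.58 CPM in the early libraries and 35.9, 13.3, 16.7 and 19.5 in the late ones. All late libraries were above all early ones, and EYA2 rose by 1.90 ± 0.36 (edgeR adjusted p = 0.00102, 14.2% of all genes called higher). With a mitochondrial limit of 5%, or with 1 more marker required per gate, this could not be tested. Neuron markers in this gate summed to 549 to 617 CPM at E16, 552 to 592 at E18, 135 to 201 at E21 and 112 to 137 at E28. Myocyte markers there summed to 10.9 to 26.8 CPM early and 25.8 to 92.2 CPM late. The part of either in the result was not tested. Between E18 and E21 the rise was 1.86 ± 0.38 (adjusted p = 0.000379, 10.6% called higher), and it was lost without E21-ZZ (0.253).

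In progenitor-like cells EYA4 had 0 CPM in E18-ZZ and 0.748 in E18-DZ, against 22.4 and 10.4 in the E21 pair and 27.2 and 12.8 in the E28 pair. This was 1 UMI against 135, a ratio of 41.7 (95% exact interval 7.36 to 1660, edgeR adjusted p = 0.00317, 3.03% of all genes called higher), and the call was lost without E18-ZZ (0.0957) and with a mitochondrial limit of 5% (0.0694).
Myocyte markers in this gate summed to 157 and 227 CPM at E18, 1930 to 2304 at E21 and 706 to 979 at E28. Neuron markers summed to 19.8 to 29.9, 417.6 to 602 and 84.2 to 206.8 CPM at these stages, and fibroblast markers to 606 to 723, 1302 to 1350 and 2733 to 3031 CPM. The part of any of these in the result was not tested. In myocyte-like cells EYA4 rose by 2.10 ± 0.38 (adjusted p = 0.0101, 4.03% called higher), lost without E18-ZZ (0.192) or E18-DZ (0.143) and no longer testable with the 5% limit. Fibroblast markers in the myocyte gate summed to 197.2 to 254.9 CPM at E18, 749.5 to 753 at E21 and 1036 to 1256 at E28, and neuron markers to 5.38 to 25.9, 145.1 to 147.6 and 75.7 to 82.8 CPM. Their part in the result was not tested. With adjacent stages, the E18 to E21 rise of EYA4 was 5.12 ± 0.77 in progenitor-like cells (adjusted p = 0.00017, 5.09% called higher) and 2.34 ± 0.37 in myocyte-like cells (adjusted p = 0.000174, 5.47% called higher). Each of these fits rested on 6 libraries, with fewer residual degrees of freedom than those of whole libraries. Leaving out 1 library leaves a stage with 1 library.
In sclerotome-like cells EYA4 went from 0 UMIs early to 21 late, at least 9.07-fold higher at the pooled floor (edgeR adjusted p = 0.00069, 4.79% called higher), and the call was lost without E18-ZZ (0.208) and not testable with the 5% limit. Myocyte markers there summed to 12.2 to 13.8 CPM at E18, 30.0 to 34.4 at E21 and 203.1 at E28, and fibroblast markers to 1575 to 1725, 1223 to 1448 and 2993 CPM, and the part of either in this result or in that of DACH1 in the same gate was not tested.

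EYA2 did not follow EYA4 inside the muscle gates. Late minus early it was -0.53 ± 0.21 in myocyte-like cells (edgeR adjusted p = 0.153) and -0.08 ± 0.38 in progenitor-like cells (adjusted p = 0.930). In neuron-like cells it was -1.22 ± 0.28 and just missed the threshold (adjusted p = 0.0509, 2.28% of all genes called). SIX4 and EYA1 had no call in the gates where they could be tested. Both were below the filter in the neural crest or glia, endothelial, erythroid and neural progenitor gates, and EYA1 also in the sclerotome gate. In neural crest or glia-like cells SIX4 had 0, 4.47, 2.71 and 5.89 CPM early and 15.2, 6.63, 16.7 and 26.5 late, without overlap and without a test. In endothelial-like cells it had 2.77 to 5.15 CPM early and 0 to 3.58 late. SIX4 in progenitor-like cells was -0.43 ± 0.23 (adjusted p = 0.302) and EYA1 in myocyte-like cells -0.76 ± 0.38 (adjusted p = 0.261). In the other direction, EYA1 in fibroblast-like cells was 1.29 ± 0.56 (adjusted p = 0.105). SIX4 in neuron-like cells was 2.68 ± 1.51 (adjusted p = 0.423), from 1 early UMI.

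DACH1 fell from E21 to E28 in 3 of the 5 gates compared between these stages. In progenitor-like cells it fell from E21 to E28 by 2.82 ± 0.35 (edgeR adjusted p = 4.17e-05, 2.61% of all genes called lower), in a fit of 6 libraries. In fibroblast-like cells the E16 pair had 3.35 and 1.47 CPM, the E18 pair 26.3 and 12.7, the E21 pair 21.2 and 23.1, and the E28 pair 7.08 and 3.13, and the last step was a fall of 2.32 ± 0.34 (adjusted p = 0.0012, 3.54% called lower, lost without E21-DZ at 0.0527). In endothelial-like cells the same pairs had 11.9 and 9.84, 15.4 and 25.9, 33.4 and 35.3, and 7.14 and 1.60 CPM, and it fell by 2.86 ± 0.58 (adjusted p = 0.0443, 0.356% called lower), lost without E21-ZZ (0.0919), E21-DZ (0.0757), E28-ZZ (0.0933) or E28-DZ (0.393).
In myocyte-like cells the last step was -1.51 ± 0.55 (adjusted p = 0.144, 3.31% called lower) and in neural crest or glia-like cells -0.93 ± 0.47 (adjusted p = 0.388), and neither passed. Fibroblast markers were higher beside these values in progenitor-like cells, from 1302 to 1350 CPM at E21 to 2733 to 3031 at E28, while neuron markers there went from 417.6 to 602 CPM at E21 to 84.2 to 206.8 at E28 and myocyte markers from 1930 to 2304 to 706 to 979. Fibroblast markers in endothelial-like cells were 221 to 441 CPM at E21 and 168 to 241 at E28. The part of any of these in the result was not tested. The E28 samples were myotome and the E21 samples somite. Of gates not tested between these stages, the E28 pair was below the E21 pair in neuron-like cells (95.6 and 86.6 against 153.5 and 212.1 CPM) and in myoblast-like cells (1.94 and 5.17 against 12.4 and 22.2 CPM, from 3 and 12 against 4 and 11 UMIs), and the pairs overlapped in chondrogenic-like cells (29.2 and 15.5 against 12.0 and 16.0).
Sclerotome-like cells were lower already by E21, with 37.6 and 39.7 CPM in the E18 pair against 7.25 and 6.00 in the E21 pair and 10.7 in E28-ZZ. In this gate DACH1 passed the filter on low counts through its E18 libraries only, so no rise could have been called. DACH1 fell there by 2.35 ± 0.52 (late minus early, adjusted p = 0.00231, 3.31% called lower), and the call was lost without E18-ZZ (0.290), E18-DZ (0.200) or E21-DZ (0.0672) and with the 5% mitochondrial limit (0.0646). The DACH1 call in the sclerotome gate was also lost with DESeq2 (adjusted p = 0.236). At the early end, epithelial-like cells had 13.5 and 22.4 CPM of DACH1 at E16 and 73.4 and 71.8 at E18, and lateral mesoderm-like cells a mean of 3.83 at E16 and 31.7 at E18.

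To ask whether the breeds differed, DZ was compared with ZZ with stage as a factor. None of the 5 genes passed in whole libraries or in the sum of the skeletal gates (edgeR), where 0.00697% and 0.0594% of all genes were called. At an unadjusted p under 0.05 stood 6.14% of all genes in whole libraries and 6.28% in the skeletal sum, with 0 of the 5 genes in the latter and 2 in the former, EYA1 at 0.59 ± 0.15 (adjusted p = 0.777) and SIX4 at 0.29 ± 0.11 (adjusted p = 0.799). Both were higher in DZ at all 4 stages. The change of EYA4 from early to late was 3.90 ± 0.38 in ZZ (adjusted p = 0.0427, 0.774% called higher) and 4.10 ± 0.39 in DZ (adjusted p = 0.0432, 1.07% called higher), and no interaction of breed with stage passed for any of the 5 genes (edgeR, lowest unadjusted p = 0.603). EYA2 did not pass within either breed, at 2.36 ± 0.57 in ZZ (edgeR adjusted p = 0.0695) and 1.94 ± 0.56 in DZ (0.0882).

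The other genes of the families and the genes around them gave a frame for these values. SIX2, a homeobox gene of the same family as SIX4, rose from progenitor-like to myoblast-like cells (1.48, adjusted p = 0.0338) and in the whole libraries (2.999, adjusted p = 0.0115). EYA3 had 35.6 ± 4.1 CPM in whole libraries, and no gate differed from muscle by the test.
In the step from myoblast-like to myocyte-like cells, where EYA2 and EYA4 rose, 7 of 7 tested fast muscle genes that marked neither of the 2 gates rose (9.56% of all genes rose; median 5.34, against -0.00913 for all genes tested), among them CKM (7.95), MYLPF (6.98) and TNNC2 (6.96), which encode a muscle creatine kinase, a fast myosin light chain and fast troponin C. Of 13 such network genes 6 rose, among them the laminin receptor subunit ITGA7 (5.13) and the muscle transcription factor MEF2C (4.495), and 2 fell, among them PAX3 (-2.01). Of the 4 other family genes tested, 0 were called. The markers of the myocyte gate included the contractile genes MYH3, MYL1, NEB and TNNT1. The rise of fast muscle genes in this step is therefore not independent of how the gate was chosen. In whole libraries, late minus early, 12 of 19 network genes rose and 1 fell (TEAD4, -1.32), where 34.1% of all genes were called and 17.1% rose, with a median of 1.16 against 0.0256 for all genes, and 5 of 8 fast muscle genes rose and 1 fell.

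The genes whose levels were most like each member were sought over 92 sums of gate and library among 8074 genes, as a Pearson correlation of log2(CPM + 10). The sums share libraries, depth and cell types, so the values are descriptions. Among the genes most like EYA1 were MYF5 (0.663) and NECTIN1 (0.639). EYA2 was most like FNDC5 (0.872), PKIA (0.826) and RTN2 (0.809), and EYA4 was most like the muscle genes PGAM2 (0.827), TNNT1 (0.819) and MYLPF (0.802). TNNT1 is a marker of the myocyte gate and MYF5 of the progenitor and myoblast gates, so their values are not independent of the gating. DACH1 was most like KLHDC9 (0.795), DPYSL5 (0.788) and STRBP (0.777), and SIX4 was most like PTK7 (0.766) and LOXL1 (0.744). Among the 5 genes the highest value was SIX4 with EYA1 (0.619), followed by EYA1 with EYA2 (0.570) and EYA2 with EYA4 (0.496), and the lowest was EYA4 with DACH1 (-0.289).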

How the data were processed

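The authors counted UMIs per gene and cell with Cell Ranger on Sscrofa11.1 and deposited whole-number counts for the barcodes called as cells; normalised values were not used here. Barcodes with under 200 genes, over 30000 UMIs or over 10% of UMIs from 13 mitochondrial genes were removed (90688 to 82394), then 8247 doublets ranked by Scrublet score (scanpy 1.11.5, 0.8% per 1000 barcodes). Cells were gated on 153 listed markers, of which 12 were not matched to a symbol in the files. Summed counts were tested with edgeR 4.0.16 in R 4.3.3 (TMM, filterByExpr, robust quasi-likelihood F test), with Benjamini-Hochberg adjustment over all genes tested and a threshold of 0.05. Precision is limited by the UMIs per sum, and a count of 0 allows up to 3. Alternatives were DESeq2 1.42.0, other filters, other gates and each library left out. The script was tested on simulated data. The genes, markers and lists were chosen with earlier results of these data known. Named genes were the 5 genes, the rest of their families, up to 4 examples per list with the largest change past the threshold, and the 3 genes most like each member, less 1 known by identifier only and 1 that is not reported here. Genes that mark a gate stayed in the tests, the adjustment and the shares of all genes. They were left out of the list counts in contrasts of that gate. RefSeq gene starts came from the same assembly.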

Additional observations from a re-analysis of the deposited data

Results flagged for a closer look

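Of 99 sets of 4 early or 4 late libraries checked, 6 held a library whose gap to its nearest neighbour exceeded Dixon's 95% limit, and chance alone gives about 1 in 20. In 5 of them every other library was at 0, so the gap rests on 1 or 2 UMIs. These were SIX4 in erythroid-like cells of E18-DZ (1.888 CPM, 2 UMIs), EYA2 in erythroid-like cells of E28-ZZ (3.099 CPM, 1 UMI), EYA2 in fibroblast-like cells of E18-ZZ (0.5482 CPM, 1 UMI), EYA4 in erythroid-like cells of E21-DZ (1.51 CPM, 1 UMI) and EYA4 in neuron-like cells of E21-ZZ (0.2843 CPM, 2 UMIs). The remaining set was DACH1 summed over the skeletal gates of the early libraries, where E16-DZ was lowest at 30.47 CPM (32 UMIs) and the other 3 libraries lay between 48.69 and 52.32 CPM.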

How the results depend on the processing

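The 120 values of the 5 genes were recomputed under 2166 combinations of value and alternative. Of these, 2077 kept their direction and their side of the threshold, 55 lost a call, 17 gained one and 17 changed sign. The labels give no replicate numbers, so no fit paired libraries by number. Breeds were compared within stage, and gates within library. The 45 calls against muscle, the 2 along the lineage, the 2 in whole libraries and the 0 for breed stayed within 1.5 times their number. The 2 calls within gates became 4 with doublets kept, 4 with cells of 2 lineages given to the lineage with most markers, 4 with no filter on low counts, 1 with a 5% mitochondrial limit, 0 with 1 more marker required per gate (neither call could then be tested), 6 with the added gates and 2 to 4 with 1 library left out. The 4 calls of the added gates became 0 with a 5% mitochondrial limit (2 lost, 2 not testable) and 0 to 4 with 1 library left out (0 without E18-ZZ, 2 without E18-DZ, 2 without E21-DZ).

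DACH1 in the chondrogenic gate was the 1 called value that changed sign, and the causes of the 17 changes were not tested. Without both E28 libraries these were DACH1 (-0.23) in the chondrogenic gate against muscle, EYA4 (-0.11) in the myoblast step, DACH1 (0.44) and EYA1 (-0.35) in whole libraries and DACH1 (0.21) within the neuron gate, late minus early. Without both E16 libraries they were SIX4 in whole libraries (-0.12) and in the fibroblast gate (-0.23). With 1 more marker required they were DACH1 in the fibroblast gate (-0.20) and EYA2 in the neuron gate (-0.29), and with a 5% mitochondrial limit DACH1 in the sclerotome gate (-0.0193) and EYA1 in the dermomyotome gate (-0.21). With 1 library left out, EYA1 ranged from -0.68 to 0.10 in the myocyte step, from -0.073 to 0.42 between breeds in the skeletal gates and from -0.63 to 1.24 within the neuron gate, EYA2 from -0.82 to 0.65 within the progenitor gate, and SIX4 from -0.39 to 0.33 within the myocyte gate. Values near the limit set by 1 to 3 UMIs are bounded by depth.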
